A study of Mus musculus with 6 samples.

Results

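The piRNA pathway of fetal male germ cells was followed through 10 of its genes, out of 27998 gene rows in the count table. The members were chosen by name: Piwil2 and Piwil4, which encode PIWI proteins; Gtsf1, whose protein assists PIWI slicing; the Tudor domain genes Tdrd1, Tdrd5, Tdrd9 and Tdrd12; Mael; and Asz1 and Pld6, which act at the mitochondrial surface. All 10 rows were found. The samples were germ cells of mouse testes at embryonic day 14.5 on a mixed C57/B6 and 129 background, sorted by flow cytometry for the red fluorescent protein tdTomato and captured with 10x Genomics Chromium v2 chemistry. In this chemistry reads come from the 3' ends of transcripts, and a unique molecular identifier (UMI) lets copies of one molecule be counted once. Of the 6 samples, 3 were labelled Rb1 cKO, in which the retinoblastoma gene Rb1 is conditionally deleted, and 3 were labelled wildtype and are called controls here. The labels give neither the Cre driver nor the deleted exon, nor the source of the tdTomato signal that both groups share. They do not say whether replicates came from separate animals, and the spread behind each p-value is that between these samples, part of which may be technical.

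PIWI proteins bind small RNAs, the piRNAs, that match transposon transcripts. In the fetal testis PIWIL2, also called MILI, slices such transcripts in the cytoplasm, and the products guide PIWIL4, or MIWI2, into the nucleus, where it directs DNA methylation to transposon promoters. This happens while the genome is being methylated again after its earlier erasure, in germ cells that have left the mitotic cycle. Tudor proteins recognise methylated arginines of PIWI proteins and assemble the granules in which piRNAs are made. RB1 restrains E2F transcription factors, and the comparison of the genotypes asks how the transcriptome differs when it is lost.

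The DNA upstream of Mael, Tdrd1 and Asz1 is shown because Mael and Tdrd1 had the largest log2 fold changes of the members toward Rb1 cKO samples, while Asz1 stood highest in the library in which both were lowest. The sequences are from RefSeq on build GRCm38.p6, end at the gene's start and run 5′ to 3′ on the gene's strand. Capitals mark matches to TTCCCGC or TTTGGCGC (E2F site letters), CACGTG (E-box) or GGGCGG (GC box), searched on both strands. No motif overlapped another in them. The windows are chr1:166238748-166238994 on the minus strand for Mael, chr19:56825959-56826208 on the plus strand for Tdrd1 and chr6:18109062-18109311 on the minus strand for Asz1. For Mael the 3 bases inside the gene in the GENCODE annotation were left out.
Mael: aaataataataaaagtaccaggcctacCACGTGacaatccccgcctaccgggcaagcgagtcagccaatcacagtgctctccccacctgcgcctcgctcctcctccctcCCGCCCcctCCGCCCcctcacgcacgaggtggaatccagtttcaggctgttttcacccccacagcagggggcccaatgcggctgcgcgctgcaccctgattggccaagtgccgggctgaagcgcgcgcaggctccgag
Tdrd1: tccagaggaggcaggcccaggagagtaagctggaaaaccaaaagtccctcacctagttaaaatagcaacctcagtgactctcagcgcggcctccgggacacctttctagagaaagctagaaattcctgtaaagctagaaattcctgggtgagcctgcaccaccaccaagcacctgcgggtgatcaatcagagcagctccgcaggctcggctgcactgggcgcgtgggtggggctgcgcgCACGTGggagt
Asz1: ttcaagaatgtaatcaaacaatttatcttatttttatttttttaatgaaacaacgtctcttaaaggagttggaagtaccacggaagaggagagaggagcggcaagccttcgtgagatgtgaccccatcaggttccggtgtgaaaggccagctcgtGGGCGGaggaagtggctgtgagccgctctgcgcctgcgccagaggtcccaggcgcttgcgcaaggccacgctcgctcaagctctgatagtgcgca
Mael held 1 E-box and 2 GC boxes, Tdrd1 held 1 E-box and Asz1 held 1 GC box. Of the 10 members 9 had an upstream window of 250 bases in the table, and Piwil2 had none. An E-box was found in 4 of these 9 genes and a GC box in 4, against 6.02% and 32.7% of 32851 windows of all genes. A member counted if any of its windows matched, and some had more than 1. The shares over all genes are per window, so the units differ. TTCCCGC was found in 1 member, Tdrd5, against 3.82% of all windows, and TTTGGCGC in 0, against 0.417%. The Tdrd5 window lies inside the gene in the GENCODE annotation, so it is not printed. Among the windows searched, 1 each of Piwil4, Tdrd1 and Pld6 also lay wholly inside the gene. A match is a description of letters and does not show that a factor binds.

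After filtering for genes detected and mitochondrial share, 5154 of 5160 barcodes remained, with 480, 945 and 1164 cells in Rb1 cKO libraries 1 to 3 and 781, 430 and 1354 in control libraries 1 to 3. Summed UMIs ran from 7598511 to 17323152 per library. Levels are given as CPM (counts-per-million), a gene's share of the UMIs of its library, adjusted by library factors between 0.965 and 1.03. The 3' chemistry counts molecules and not fragments, so values were not divided by gene length. The 8 germ cell markers, such as Dazl and Dppa5a, summed to 8502 to 9387 CPM in Rb1 cKO libraries and 8660 to 9552 CPM in controls. Macrophage markers, 7 in all with 0 undetected, summed to 0.256 to 1.90 CPM in Rb1 cKO libraries and 1.92 to 48.4 CPM in controls, the highest in control 2. Sertoli cell markers, 8 in all with 0 undetected, summed to 8.84 to 11.2 CPM in Rb1 cKO libraries and 6.40 to 25.0 CPM in controls, the highest in control 3. Leydig cell markers stayed at 1.45 CPM or less in every library, with 3 of 6, Hsd3b1, Insl3 and Lhcgr, undetected. Stromal markers summed to 3.63 to 4.48 CPM in Rb1 cKO libraries and 3.56 to 9.61 CPM in controls, with 0 undetected. Endothelial markers summed to 44.1 to 60.3 CPM in Rb1 cKO libraries and 50.1 to 69.6 CPM in controls, and erythroid markers to 6.15 to 24.1 CPM in Rb1 cKO libraries and 22.0 to 32.8 CPM in controls, with 0 undetected in either list. The part of these cells in the results was not tested, apart from the fit without cluster 3 given under the alternatives. Annotated genes overlap Piwil2, Tdrd5 and Tdrd12 on the same strand and Piwil4, Tdrd5 and Tdrd9 on the other, and the sources used here do not say how strand was counted, so reads of these genes may be shared. There were 9 barcode sequences that occurred in more than 1 library.

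Rb1 itself, on chromosome 14 from 73183673 to 73325822, stood at 3.35, 3.73 and 3.64 CPM in Rb1 cKO samples and at 10.3, 8.65 and 7.13 CPM in controls. All 3 Rb1 cKO values were below all 3 controls. The fitted log2 fold change was -1.27 ± 0.19 (SE; edgeR adjusted p = 0.415). The adjusted p was 0.0181 without the low-count filter, 0.0422 without control 3 and 0.0479 by DESeq2, over a range of 0.0181 to 0.9998 in the alternatives. Where the deleted part lies is not in the labels, and counts from 3' ends need not fall in it, so this level is no check of the deletion by itself.

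In the PIWI genes and Gtsf1 the values of the genotypes overlapped. Piwil2 (ENSMUSG00000033644.5) lies on chromosome 14 from 70372477 to 70429383 and had 16.0, 12.8 and 15.005 CPM in Rb1 cKO libraries 1 to 3, against 12.5, 16.0 and 13.8 CPM in control libraries 1 to 3. The groups overlapped almost wholly, and the log2 fold change was 0.05 ± 0.14 (SE), with a 95% confidence interval from -0.27 to 0.37. Piwil4 (ENSMUSG00000036912.17, chromosome 9, 14696230 to 14740733) was found in few molecules, 125 UMIs over the 6 libraries. It stood at 1.49, 1.43 and 2.31 CPM in Rb1 cKO libraries and 1.46, 2.45 and 1.32 CPM in controls. Each group held 1 library well above its others. The group means were 1.74 ± 0.492 CPM in Rb1 cKO samples and 1.75 ± 0.618 CPM in controls (SD, n = 3 each). The log2 fold change of 0.08 ± 0.35 (SE) has the other sign from these means and an interval from -0.71 to 0.87. Gtsf1 (ENSMUSG00000022487.14, chromosome 15, 103402405 to 103430470) encodes a zinc finger protein that PIWI proteins need for slicing. It had 3.23, 4.44 and 4.56 CPM in Rb1 cKO libraries and 4.67, 3.74 and 3.24 CPM in controls, with the highest and the second lowest value both in controls and a log2 fold change of 0.10 ± 0.23 (SE).

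Among the Tudor domain genes, Tdrd5 was the 1 member of all 10 whose groups did not overlap. Tdrd5 (ENSMUSG00000060985.15, chromosome 1, 156255296 to 156303664) is needed for piRNA production and for the chromatoid body of later germ cells. It had 45.2, 45.0 and 44.0 CPM in Rb1 cKO libraries and 42.6, 41.6 and 39.0 CPM in controls. All 3 Rb1 cKO libraries were above all 3 controls, but the step between the groups was small, with means of 44.8 ± 0.622 CPM in Rb1 cKO samples and 41.1 ± 1.89 CPM in controls (SD, n = 3 each). For Tdrd5 edgeR gave a log2 fold change of 0.13 ± 0.08 (SE; adjusted p = 0.994) and an interval from -0.06 to 0.31. Of all 11540 genes tested, 4.71% had groups that did not overlap with Rb1 cKO samples higher and 4.23% with Rb1 cKO samples lower, beside 1 of 9 tested members higher and 0 lower.

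Tdrd1 (ENSMUSG00000025081.13, chromosome 19, 56826209 to 56870012), whose protein binds PIWIL2 in the granules between mitochondria, had the widest relative spread of the tested members. It stood at 4.72, 5.79 and 8.50 CPM in Rb1 cKO libraries and at 7.50, 5.17 and 2.997 CPM in controls. The highest value was in Rb1 cKO 3 and the lowest in control 3, with the other 4 interleaved. Relative to the mean, the SD was 30.8% in Rb1 cKO samples and 43.1% in controls. By edgeR the log2 fold change was 0.33 ± 0.36 (SE). It was 0.02 without control 3 and 0.04 without Rb1 cKO 3, and 0.72 without control 1. Tdrd12 (ENSMUSG00000030491.16, chromosome 7, 35469098 to 35537745), needed for the piRNAs that PIWIL4 carries, had 35.9, 28.0 and 32.3 CPM in Rb1 cKO libraries and 34.9, 27.8 and 34.6 CPM in controls. In each group library 2 was the lowest, and the log2 fold change was -0.03 ± 0.13 (SE). Tdrd9 (ENSMUSG00000054003.13, chromosome 12, 111971559 to 112068854), a helicase that acts with PIWIL4, gave 28 UMIs in all, 2 to 8 per library, and did not pass the filter on low counts. Its levels were 0.621, 0.317 and 0.486 CPM in Rb1 cKO libraries and 0.183, 0.387 and 0.360 CPM in controls, too few molecules to rank the libraries.

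Mael had the largest difference among the tested members, and libraries differed within each genotype. Mael (ENSMUSG00000040629.8, chromosome 1, 166201201 to 166238747) encodes maelstrom, a protein of the granules that hold PIWIL4 and TDRD9. It had 73.8, 76.6 and 103.4 CPM in Rb1 cKO libraries and 81.0, 60.2 and 47.5 CPM in controls, on 466 to 1702 UMIs. Rb1 cKO 3 was highest, controls 2 and 3 were below all Rb1 cKO libraries, and control 1 was above Rb1 cKO 1 and 2. Means were 84.6 ± 16.3 CPM in Rb1 cKO samples and 62.9 ± 16.9 CPM in controls (SD, n = 3 each). The log2 fold change was 0.43 ± 0.23 (SE), or 1.35-fold, with an interval from -0.12 to 0.99 (edgeR adjusted p = 0.994). Without control 3 it was 0.26, and without Rb1 cKO 3 also 0.26. Without control 1 it was 0.66, with an adjusted p of 0.533 by edgeR. Its range over all 16 alternatives was 0.26 to 0.66, with adjusted p from 0.533 to 0.99999. By DESeq2 its unadjusted p was 0.0217 and its adjusted p 0.9998.

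Both genes of the mitochondrial surface had negative log2 fold changes, with intervals that cross 0 and, for Asz1, a sign that turned without 1 library. Asz1 (ENSMUSG00000010796.11, chromosome 6, 18050964 to 18109061) encodes an ankyrin repeat protein, also called GASZ, that holds the piRNA machinery at mitochondria. It had 42.1, 50.6 and 50.2 CPM in Rb1 cKO libraries and 44.0, 45.8 and 58.1 CPM in controls, the highest in control 3 and the lowest in Rb1 cKO 1. Its fitted log2 fold change was -0.05 ± 0.12 (SE), and it was 0.09 without control 3 and 0.03 without Rb1 cKO 1. Pld6 (ENSMUSG00000043648.7, chromosome 11, 59783897 to 59787645) encodes the mitochondrial phospholipase D family protein that cleaves piRNA precursors. It had 11.3, 11.02 and 10.6 CPM in Rb1 cKO libraries and 15.002, 12.8 and 11.1 CPM in controls. The Rb1 cKO libraries were close together, and control 3 fell among them. Pld6 had a log2 fold change of -0.24 ± 0.14 (SE), with an interval from -0.56 to 0.09.

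**Figure D1:**
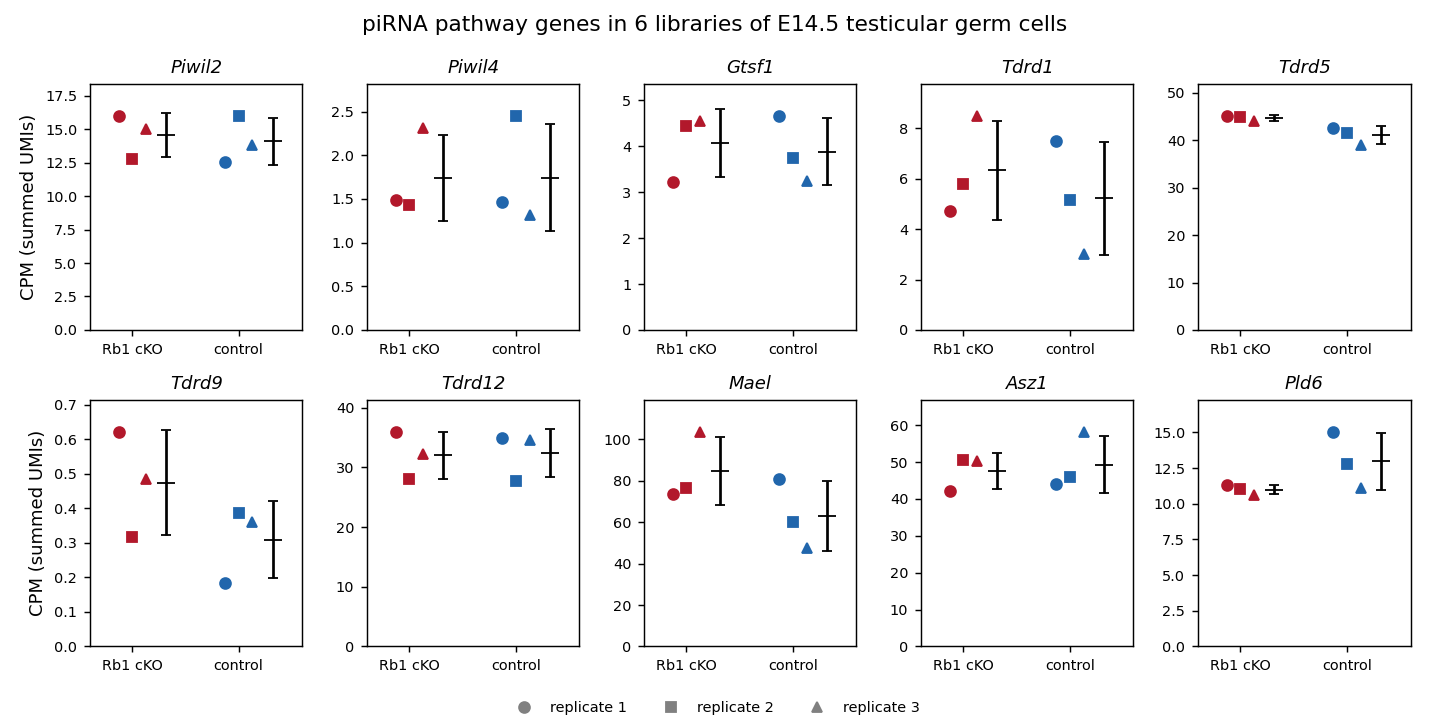
Level of each of the 10 genes in CPM (vertical axes, from 0) in every library, with Rb1 cKO left and control right. Symbols give the replicate number and black bars the mean ± SD (n = 3 each). Tdrd5 is a little higher in all Rb1 cKO libraries, and control 3 is lowest for Mael at 47.5 CPM and highest for Asz1 at 58.1 CPM.

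Control 3 was the lowest library for 4 of the 10 members, Piwil4, Tdrd1, Tdrd5 and Mael, and the highest for 1, Asz1. Rb1 cKO 1 was highest for 4 members and lowest for 2, and Rb1 cKO 2 was neither highest nor lowest for any. The 4 include Tdrd9, with 5 UMIs in Rb1 cKO 1 and too few to rank the libraries. They also include Piwil2, at 16.018 CPM in Rb1 cKO 1 against 16.012 CPM in control 2. Of the 8 germ cell markers 4, Dazl, Ddx4, Pou5f1 and Nanos2, were lowest in control 3 too. Before scaling, Dazl stood at 898 CPM there and at 1185 to 1277 CPM in the other 5 libraries. Ddx4, a helicase of the germ granules and itself a piRNA pathway gene, stood at 132 CPM in control 3 and at 172 to 202 CPM in the others, and Pou5f1 at 600.1 CPM against 620 to 683 CPM. Nanos2, which marks the male path of germ cells, stood at 2.14 CPM in control 3 and at 4.87 to 7.58 CPM in the others, while Dppa5a was highest in control 3 at 4963 CPM. Their part in the values of the members was not tested.

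Over the whole table, the comparison of Rb1 cKO and control samples called no member. By edgeR 0 of 9 tested members passed an adjusted p of 0.05 in either direction, and 0 of 11540 genes did (0%), while DESeq2 called 1 gene higher and 2 lower. At an unadjusted p under 0.05 it was 0 of 9 members, against 1.78% of all genes higher and 1.73% lower in Rb1 cKO samples. DESeq2 called 0 members at an adjusted p of 0.05 and had 1, Mael, at an unadjusted p under 0.05. Of the 9 members 6 had a positive log2 fold change, against 50.1% of all genes, and their median was 0.08, against 0.00 over all genes tested. The limits of the intervals differed widely with level. For Tdrd5 the interval ended at 0.31, and for Tdrd1 at 1.154, so a doubling of Tdrd1 lay inside its interval.

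**Figure D2:**
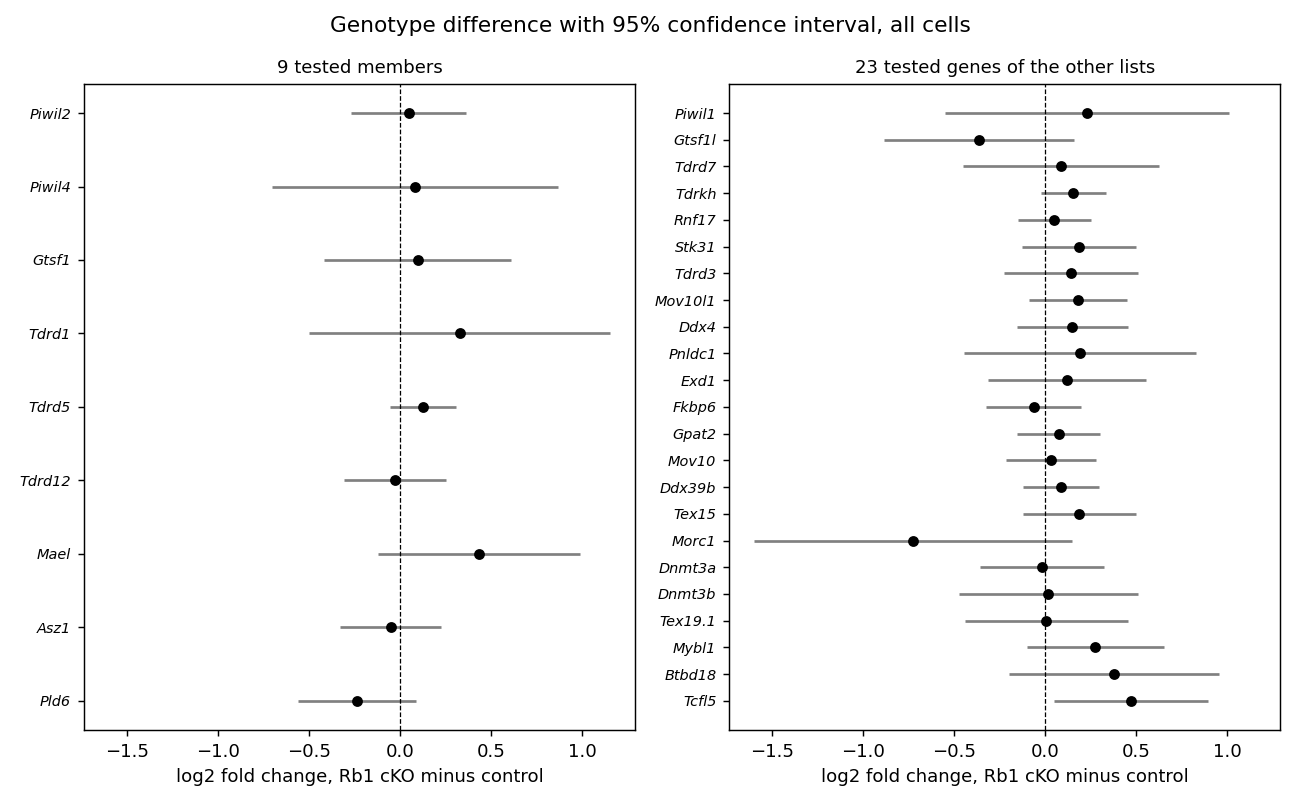
Log2 fold change of Rb1 cKO over control (horizontal axis) with the 95% confidence interval from edgeR, for the 9 tested members (left) and the 23 tested genes of the other pathway lists (right). All intervals of the members cross 0, the widest those of Tdrd1 and Piwil4, and Tcfl5 at 0.47 is the 1 gene whose interval does not.

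The members were sparse in single cells. With each cell thinned to 10000 UMIs, which left out 25, 91 and 66 shallower cells in Rb1 cKO libraries and 43, 13 and 218 in controls, the median cell had UMIs of 2 of the 10 genes in every library. No cell of the 4698 had all 10. Mael was found in 50.5%, 51.3% and 58.3% of thinned cells in Rb1 cKO libraries and in 53.1%, 44.1% and 34.5% in controls. Unthinned these shares averaged 64.7% ± 5.22 in Rb1 cKO samples and 54.3% ± 11.6 in controls (SD, n = 3 each). Tdrd5 was found in 35.8% ± 1.98 of thinned Rb1 cKO cells and 32.1% ± 1.94 of thinned control cells, and unthinned in 46.5% ± 5.43 of Rb1 cKO cells and 43.6% ± 7.30 of control cells. Piwil4 was found in 1.84% ± 0.487 of thinned Rb1 cKO cells and 1.88% ± 0.710 of thinned control cells, and unthinned in 2.56% ± 0.682 of Rb1 cKO cells and 2.70% ± 1.51 of control cells. Germ cell markers summed to 8867 to 9280 CPM in all clusters, so no cluster without germ cells was at hand. Single cells of other types were not looked for, so the share that free RNA alone would give was not measured. For Mael, the variance of thinned counts over cells divided by their mean lay between 1.08 and 1.21 in the 6 libraries. This ratio is 1 for counts that differ by sampling alone, and for Pld6 it lay between 0.958 and 1.03. At the same relative variation between cells, its excess over 1 grows with the mean count. Thinned cells averaged 0.455 to 0.980 UMIs of Mael and 0.103 to 0.153 UMIs of Pld6 per library. The ratios of these genes therefore do not tell which varies more between cells.

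The authors' metadata divide the cells into 5 numbered clusters without names, of 2210, 1863, 640, 343 and 98 cells in clusters 0 to 4. Since the clusters were made from these same transcripts, levels between them are described without a test. Cluster 4 held 10 cells in its smallest library and was not compared. Tdrd12 was higher in cluster 1 than in cluster 0 in 6 of 6 libraries, at 36.6 ± 3.16 CPM against 30.6 ± 3.84 CPM (SD, n = 6). Cluster 1 stood above cluster 2, at 29.4 ± 7.28 CPM, in 5 of 6 libraries, and cluster 3 stood at 36.8 ± 6.54 CPM. The means of clusters 0 and 2 lay within the spread between libraries, although cluster 0 was above cluster 2 in 5 of 6 libraries. Asz1 ran in the order cluster 0, 1, 2 and 3, at 51.3 ± 6.28, 49.9 ± 6.70, 43.3 ± 5.40 and 37.8 ± 5.93 CPM (SD, n = 6 each). Neighbours in this order differed by about the spread between libraries or less. Compared within libraries, cluster 0 was above cluster 1 in 4 of 6, cluster 1 above cluster 2 in 5 of 6 and cluster 2 above cluster 3 in 5 of 6. Cluster 1 was above cluster 3 in 6 of 6 libraries.

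Of clusters 0 to 3, Mael and Tdrd1 were both highest in cluster 2. Mael averaged 83.3 ± 22.7 CPM there, against 76.1 ± 19.3 in cluster 0, 73.2 ± 18.7 in cluster 3 and 72.3 ± 19.2 in cluster 1 (SD, n = 6 each), steps well within the spread between libraries, although cluster 2 exceeded each other cluster in 5 of 6 libraries. Tdrd1 averaged 8.04 ± 3.32 CPM in cluster 2, 5.92 ± 2.13 in cluster 0, 5.17 ± 2.62 in cluster 1 and 4.98 ± 2.72 in cluster 3. Cluster 2 exceeded clusters 0 and 1 in 5 of 6 libraries, on 77 UMIs. The PIWI gene Piwil2 had means of 16.1, 15.4, 15.1 and 13.7 CPM in clusters 3, 0, 2 and 1, and Tdrd5 had 45.9, 42.6, 41.9 and 41.8 CPM in clusters 0, 2, 3 and 1. In neither gene did neighbouring clusters differ beyond the SD over libraries. Compared within libraries, cluster 0 was above cluster 1 in 5 of 6 for Piwil2 and in 4 of 6 for Tdrd5. Piwil2 in cluster 3 reached 24.7 CPM in control 3 on 4 UMIs, and cluster 0 exceeded cluster 3 in 4 of 6 libraries. Pld6 was lowest in cluster 2 at 9.77 ± 3.91 CPM and highest in cluster 3 at 16.5 ± 8.47 CPM, and Gtsf1 lay between 3.80 and 5.32 CPM in all 4. The Pld6 mean in cluster 3 was raised by control 1 at 29.6 CPM and control 3 at 24.7 CPM on 4 UMIs. The other libraries lay at 9.58 to 12.9 CPM there. For Pld6, cluster 1 was above cluster 3 in 4 of 6 libraries and cluster 0 was in 3 of 6. Cluster 2 was below cluster 0 in 5 of 6 libraries, below cluster 3 in 5 of 6 and below cluster 1 in 4 of 6. Piwil4 had 1.89 CPM in cluster 0, 1.83 in cluster 1, 1.37 in cluster 2 and 1.13 in cluster 3, the last on 7 UMIs. Tdrd9 had 10 of its UMIs in cluster 2, 13 in cluster 0, 5 in cluster 1 and 0 in cluster 3, where 0 of 269 thinned cells allows a share of up to 1.12% by counting error alone. The shares in clusters 0 to 2, 0.178% to 0.813%, lie under that limit, so a difference was not detectable at this depth. Cluster 3 differed from the rest in other ways. It held macrophage markers at 83.8 CPM, against 0.802 to 2.45 CPM in the other clusters. Its stromal markers stood at 26.5 CPM, against 0.802 to 4.80 CPM, and its Sertoli markers at 24.7 CPM, against 9.63 to 13.3 CPM, and 44 of its cells had under 5000 UMIs. Its 25 cells in control 3 had a median of 4654 UMIs, against 12699 to 15999 in the other 5 libraries.

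**Figure D3:**
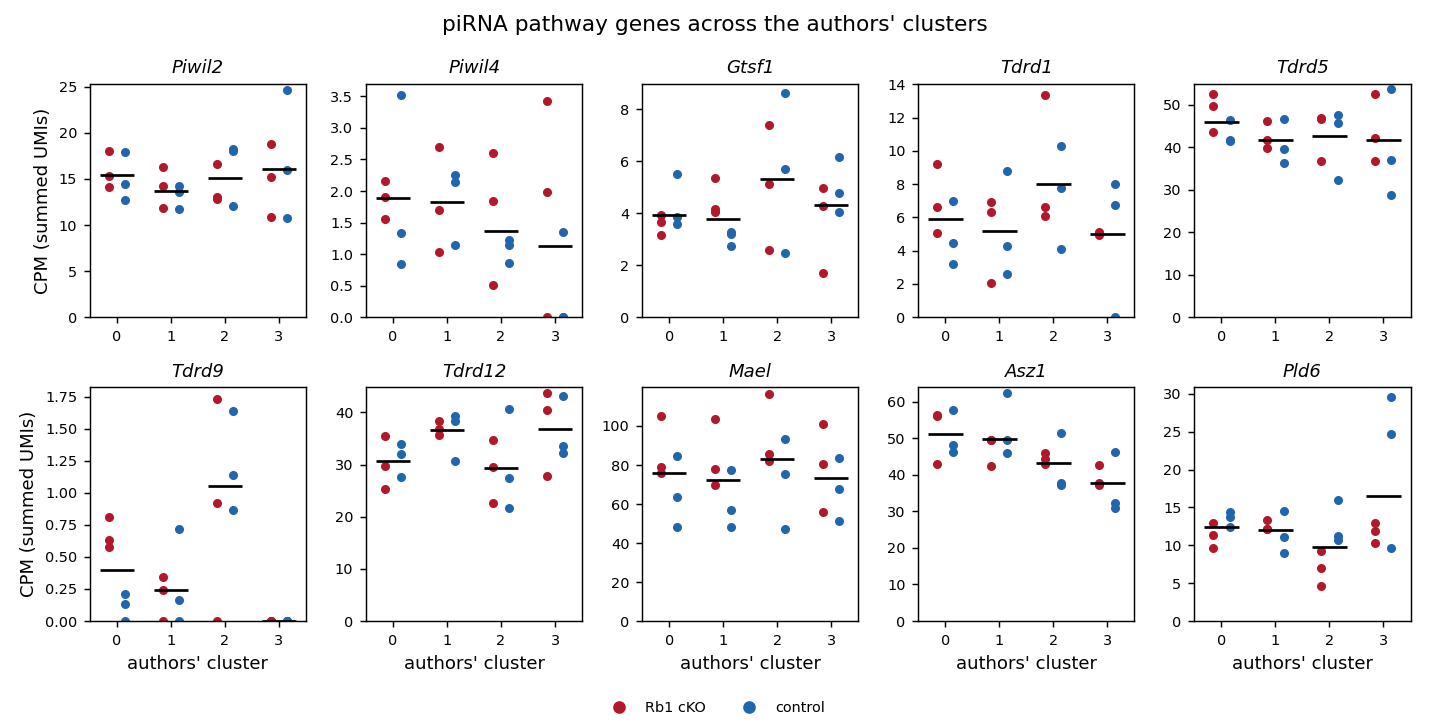
Level of each gene in CPM (vertical axes, from 0) in clusters 0 to 3, with 1 point per library (Rb1 cKO left in each cluster, control right) and a black line at the mean of 6 libraries. Asz1 declines over the 4 clusters from 51.3 to 37.8 CPM, Tdrd12 is lower in clusters 0 and 2, and Mael spreads more between libraries than between clusters.

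The library pattern of Mael was also seen within clusters 0 to 2. These clusters are parts of the same libraries, with 42.9%, 36.1% and 12.4% of all cells. They are therefore no independent repeat of the pattern over all cells. In cluster 0 it had 78.8, 76.1 and 105.3 CPM in Rb1 cKO libraries and 84.7, 63.5 and 48.2 CPM in controls. In cluster 1 the values were 69.9, 78.2 and 103.3 CPM in Rb1 cKO libraries and 77.3, 56.8 and 48.2 CPM in controls, and in cluster 2 they were 85.9, 82.0 and 116.3 CPM in Rb1 cKO libraries and 93.3, 75.3 and 47.0 CPM in controls. Rb1 cKO 3 was highest and control 3 lowest in all 3 of these clusters, while Asz1 was highest in control 3 in each. In cluster 3 control 3 stood at 67.8 CPM on 11 UMIs and control 2 was lowest. The log2 fold change of Mael was 0.42 ± 0.23 (SE) in cluster 0, 0.47 ± 0.21 in cluster 1, 0.45 ± 0.25 in cluster 2 and 0.24 ± 0.23 in cluster 3, none past the threshold by edgeR.

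**Figure D4:**
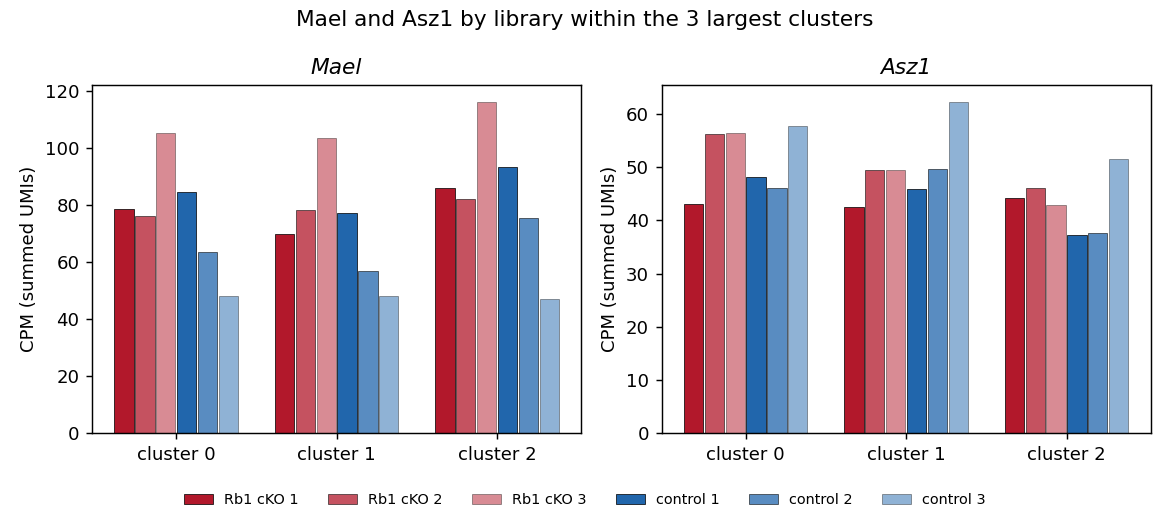
Level of Mael (left) and Asz1 (right) in CPM (vertical axes, from 0) in each library within clusters 0, 1 and 2, with Rb1 cKO libraries in red and controls in blue, replicates 1 to 3 from dark to light. Control 3 is the lowest bar for Mael and the highest for Asz1 in each of the 3 clusters, which are parts of the same libraries.

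Within clusters, edgeR called 0 members and 0 genes (0%) in any of the 4 tested. The members that entered were 8 in cluster 0, 8 in cluster 1, 7 in cluster 2 and 5 in cluster 3, and the rest fell under the filter on low counts. Their log2 fold changes were positive in 5 of 8 members in cluster 0, against 49.7% of 10091 genes, in 7 of 8 in cluster 1, against 49.7%, in 4 of 7 in cluster 2, against 48.5%, and in 5 of 5 in cluster 3, against 49.6% of 5996 genes. The medians were 0.06, 0.09, 0.02 and 0.06 in clusters 0 to 3. At an unadjusted p under 0.05 there was 1 member, Pld6 in cluster 2, where 2.15% of 7895 genes were lower and 1.89% higher in Rb1 cKO samples. In the other clusters 0 members reached it, against 1.96% of genes higher and 1.92% lower in cluster 0, 1.53% and 1.84% in cluster 1, and 1.68% in each direction in cluster 3. Groups did not overlap in 0 tested members of clusters 0 and 3, against 4.88% of genes higher and 4.79% lower in cluster 0 and 5.07% and 4.49% in cluster 3. Pld6 had 6.94, 9.22 and 4.61 CPM in Rb1 cKO libraries and 11.2, 16.0 and 10.6 CPM in controls in that cluster, on 8 to 26 UMIs per library. The groups did not overlap, as in 4.86% of genes in that direction and 4.47% in the other. Its log2 fold change there was -0.82 ± 0.35 (SE; edgeR adjusted p = 0.9996). In cluster 1 the groups of Gtsf1 did not overlap, at 4.15, 5.34 and 4.04 CPM in Rb1 cKO libraries and 2.76, 3.21 and 3.27 CPM in controls, where 4.65% of 9889 genes had this in that direction and 4.59% in the other. Its log2 fold change there was 0.54 ± 0.31 (SE; edgeR adjusted p = 0.9997). Pld6 and Gtsf1 were singled out after their values were seen. In the test of a difference between clusters in the effect of genotype, 0 of 8 tested members and 0 of 10029 genes (0%) passed. Pld6 had an unadjusted p of 0.0202 and an adjusted p of 0.9987 by edgeR, where 4.73% of all genes reached an unadjusted p under 0.05.

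The other genes of the pathway were read from 5 lists of 29 genes, of which 27 were in the count table and 23 entered the test. Of these, 0 passed in either direction, 19 had a positive log2 fold change, against 50.1% of all genes, and the median was 0.12, against 0.00 over all genes. In the PIWI list, Gtsf1l, a paralog of Gtsf1, had 6.44 ± 1.48 CPM in Rb1 cKO samples and 8.31 ± 2.19 CPM in controls, and Piwil1, the PIWI gene of later meiotic germ cells, 1.52 ± 0.110 CPM in Rb1 cKO samples and 1.25 ± 0.479 CPM in controls (SD, n = 3 each). In the Tudor list 5 of 5 tested genes were positive. Stk31, a Tudor protein with a kinase-like domain, had 190 ± 15.4 CPM in Rb1 cKO samples and 167 ± 31.9 CPM in controls. Tdrkh, which binds PIWI proteins at mitochondria, had 88.0 ± 3.51 CPM in Rb1 cKO samples and 79.1 ± 4.92 CPM in controls. In the biogenesis list 7 of 8 were positive, among them Ddx39b, an RNA helicase of mRNA export, at 507 ± 22.6 CPM in Rb1 cKO samples and 478 ± 58.1 CPM in controls. Fkbp6, a co-chaperone that piRNA loading needs, was the exception at 199 ± 21.5 CPM in Rb1 cKO samples and 208 ± 29.3 CPM in controls. Of the genes named from these lists so far, Stk31, Tdrkh and Ddx39b were lowest in control 3, at 136, 74.6 and 411 CPM. Gtsf1l, Piwil1 and Fkbp6 were not, with 8.75, 1.80 and 201 CPM in control 3. Among the other tested genes of these lists, Tdrd7, Tdrd3, Mov10l1, Ddx4, Pnldc1, Gpat2 and Mov10 were lowest there too. Rnf17 and Exd1 were not. In the lists of the next paragraph Tex15 and Tex19.1 were lowest there, and Dnmt3a, Dnmt3b, Morc1, Mybl1, Btbd18 and Tcfl5 were not. All genes lowest in control 3 had positive log2 fold changes, as had Piwil1, Rnf17, Exd1, Dnmt3b, Mybl1, Btbd18 and Tcfl5. The part of control 3 in the counts of positive genes was not tested.

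Genes of the list for nuclear silencing and DNA methylation were mixed in sign. Tex19.1, which restrains transposons, had 243 ± 18.8 CPM in Rb1 cKO samples and 242 ± 65.0 CPM in controls, and Tex15, which PIWIL4-directed methylation needs, 24.5 ± 3.30 CPM in Rb1 cKO samples and 21.6 ± 3.10 CPM in controls (SD, n = 3 each). Morc1, which also silences transposons in male germ cells, was singled out after its values were seen, at 4.72, 4.99 and 5.77 CPM in Rb1 cKO libraries and 4.02, 9.43 and 12.2 CPM in controls. Control 1 was below all Rb1 cKO libraries and controls 2 and 3 far above them, and the log2 fold change was -0.73 ± 0.37 (SE). Dnmt3l, the cofactor of de novo DNA methylation, gave 2 UMIs in all, both in control 1, and Spocd1, another nuclear partner of PIWIL4, gave 0, which allows up to 0.0411 CPM over all libraries. In the list of regulators of piRNA genes 3 of 3 were positive. Tcfl5 had 7.57, 6.90 and 9.48 CPM in Rb1 cKO libraries and 6.77, 5.17 and 5.39 CPM in controls, without overlap, and Mybl1, the A-MYB factor of later piRNA genes, 8.94 ± 1.08 CPM in Rb1 cKO samples and 7.37 ± 1.04 CPM in controls. Tcfl5 was the 1 gene of the 23 at an unadjusted p under 0.05 and the 1 without overlap, where 1.78% and 4.71% of all genes were so in that direction, with a log2 fold change of 0.47 ± 0.19 (SE; edgeR adjusted p = 0.994).

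Across 26 sums of cells by library and cluster, the 5 genes most like the members were Pdlim7, Snap47, Stk31, Sycp1 and Sgk3. Their Pearson correlations with the mean log2(CPM + 1) of the members were 0.808, 0.796, 0.784, 0.765 and 0.758, the highest of 5000 candidates with at least 20 CPM. Stk31 is one of the pathway genes above, and Sycp1 encodes a protein of the synaptonemal complex. The sums share libraries and depth, so these are descriptions. The members did not follow each other closely. Against the mean of the other 9, Mael had a correlation of 0.731, Tdrd5 0.408 and Tdrd1 0.361, while Tdrd12 had -0.351, Asz1 -0.417 and Pld6 -0.531. Between these lay Tdrd9 at 0.218, Piwil2 at 0.113, Gtsf1 at 0.0248 and Piwil4 at -0.106. Piwil4 and Tdrd9 had 125 and 28 UMIs over all libraries, so counting error weighs on their values and on the means that include them.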

How the data were processed

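The authors' deposited table holds raw UMI counts per gene and barcode, and a second file gives each barcode's sample and cluster number. Cell Ranger, Seurat 3.0 and build mm10 are named, per the submitters' processing notes. The annotation release and any cell filter are not given in the sources used here. Clusters are those of the metadata column at resolution 0.2.

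The filter kept barcodes with 500 or more genes detected and a mitochondrial UMI share below 10%. Scrublet (scanpy 1.11.5), run per sample, called 139 cells doublets (2.70%), which were kept in the main test and removed in an alternative. Counts were summed per sample, and per sample and cluster where every sample had at least 20 cells, and tested with edgeR 4.0.16 (R 4.3.3) by its quasi-likelihood test, robust, two-sided, with filterByExpr and TMM factors. Adjusted p-values are Benjamini-Hochberg over all genes tested, with a threshold of 0.05. The standard error (SE) is the log2 fold change divided by the square root of F. CPM values per cluster use TMM factors over all sample and cluster sums. Totals of 7598511 to 17323152 UMIs per sample set the counting precision, and limits for counts of 0 (3 counts) cover counting error only. DESeq2 1.42.0 and the settings of the closing section were alternatives. The scripts were tested on simulated counts. Named genes are the 10 members, Rb1, the 2 genes of highest level in each pathway list and the 5 genes most like the members. Dnmt3l, Spocd1, Morc1 and the germ cell markers Dazl, Ddx4, Pou5f1, Nanos2 and Dppa5a are named outside this rule, chosen after their values were seen. The further pathway genes named for their place in control 3 are outside it too. Members and lists were chosen with earlier results of these data known. Positions are from GENCODE M21 (GRCm38). Pairwise comparison of replicate libraries found no duplicates: chi-square per degree of freedom was 4.64 or more.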

Additional observations from a re-analysis of the deposited data

How the results depend on the processing

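Over all cells and clusters, 0 members passed in any of 64 alternative fits. For the 9 tested members over all cells, the log2 fold changes of Mael, Tdrd1, Tdrd5 and Pld6 kept their sign in all 16 alternatives. The range when 1 library was left out was 0.26 to 0.66 for Mael, 0.02 to 0.72 for Tdrd1, 0.09 to 0.15 for Tdrd5 and -0.35 to -0.11 for Pld6. It crossed 0 for Piwil2 (-0.027 to 0.14), Piwil4 (-0.21 to 0.36), Gtsf1 (-0.033 to 0.26), Tdrd12 (-0.12 to 0.063) and Asz1 (-0.13 to 0.090). With cells thinned to 10000 UMIs Tdrd12 had 0.0041, and with equal cell numbers Piwil4 had -0.058 and Gtsf1 -0.14. For these reversals the cause was not tested. Without cluster 3, an alternative chosen after seeing the data, Mael had 0.44 and 0 members were called.

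Counts of genes called over all cells (0 higher, 0 lower) were 2 higher and 4 lower without a low-count filter and 1 and 2 by DESeq2. Leaving out single libraries gave 0 to 1 higher and 0 to 3 lower. Without the filter the clusters gave 7 and 8 (cluster 0), 1 and 7 (cluster 1), 1 and 2 (cluster 2) and 3 and 14 (cluster 3). Leaving out 1 library gave 0 to 1 in each direction in clusters 0, 1 and 2, and 0 to 1 higher and 0 to 3 lower in cluster 3. The test of the effect by cluster called 7 genes without the filter and, with single libraries left out, 0 to 24, the most without control 1. The cause was not tested. Rb1 had an adjusted p by edgeR of 0.0181 without the filter and 0.0422 without control 3, and of 0.0479 by DESeq2, over a range of 0.0181 to 0.9998.

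Whether the replicate numbers pair the samples was not settled. Deviations of libraries 1, 2 and 3 from their group means correlated at -0.132, 0.231 and 0.197 between the genotypes. Libraries 2 and 3 correlated best with their own number, and library 1 did not. With 3 libraries per group such correlations cannot decide whether samples are paired. With a replicate block 0 members were called, and the count of genes was 0 over all cells and 1 higher in cluster 3. A minimum of 50 cells left clusters 0 and 1, whose values it does not change. Depth limits Piwil4 and Tdrd9, with 125 and 28 UMIs in all.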
